A study of Mus musculus with 2 samples.

Results

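The genes described here encode the factors that start, extend and end protein synthesis on cytosolic ribosomes, together with the kinases, inhibitors and methyltransferases named after those factors. They were taken by name and biotype from the deposited count table: protein-coding genes whose symbol begins with Eif1 to Eif6 or with Eef1 or Eef2, plus Etf1 and Gspt1, with Eif2ak2 left out. This gave 68 genes of the 52636 in the table. Of these, 62 had a mean of at least 1 CPM, the count scaled to library size with TMM factors, and are called measured.

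RNA-seq counts came from 2 lines made from Hepa1-6 cells, which derive from a hepatocellular carcinoma of the mouse and carry the strain label C57bl/6. Both lines had been exposed for 24 h to a lentivirus carrying GFP and puromycin resistance and selected with 2 µg/ml puromycin. In the IRF8 line the virus also carried IRF8, an interferon regulatory factor of myeloid and B cells, and in the vector line it carried no IRF8. Each line gave 1 library, with 18118017 counts for vector and 20042660 for IRF8, and the labels do not say whether a line came from 1 clone or a pool. With 1 library per line nothing below could be tested against replicates, no p-value is given, and intervals describe the counting error of this pair of libraries alone. Irf8 itself had 1010 counts in the vector library against 1486 in the IRF8 library, a ratio of CPM of 1.22 (1.13 to 1.32). This is a weak check of the label, since the sequence of the introduced IRF8 was not given in the sources used here and its transcripts may or may not be counted on this gene. Among hepatocyte markers, 6 of 7 measured genes had a ratio below 1 and the summed level of all 11 was 943 CPM in the vector library against 469 CPM in the IRF8 library, with Serpina1c at 0 counts in both. Highest were Hnf4a (333 and 180 CPM), Afp (272 and 127 CPM) and Alb (200 and 75.1 CPM), and the measured gene not below 1 was Apoa2 (ratio 1.03). Myeloid markers (9 gene identifiers) summed to 65.88 and 50.02 CPM, with Adgre1 at 0 in both. Of these, 4 were measured, 1 with a ratio above 1 and 3 below, and Cd14 was highest at 41.6 and 30.4 CPM. Endothelial and stellate markers (9 genes) summed to 9.91 and 15.2 CPM, with Lrat at 0 in both. Of their 4 measured genes, Rgs5 (ratio 2.9) and Col1a1 (2.65) were higher, Vwf (0.382) was lower and Des (1.01) was near 1. Lymphoid markers (8 genes) summed to 0.346 and 0.526 CPM, all on Cd79a, with Cd3e at 0 in both. In bulk RNA, fewer cells of a type and less RNA per cell cannot be told apart, and the part of these differences in the results below was not tested.

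Translation begins when eIF2, loaded with GTP and initiator methionine tRNA, joins the small ribosomal subunit together with eIF1, eIF1A, eIF3 and eIF5. The cap-binding complex eIF4F brings this assembly to an mRNA, and 4E-BP proteins block eIF4F by occupying its subunit eIF4E unless mTORC1 phosphorylates them. Stress kinases phosphorylate the alpha subunit of eIF2, which then inhibits its exchange factor eIF2B. This lowers initiation overall while favouring a few mRNAs such as that of Atf4. After the start codon has been chosen, eEF1A delivers aminoacyl-tRNA, eEF2 moves the ribosome along, and eRF1 and eRF3 release the finished chain at the stop codon.

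None of the 62 measured genes differed by at least 2-fold between the lines. The genes with the lowest ratios, IRF8 line over vector line, were Eif4ebp1 at 0.570, Eif3d at 0.585, Eif1ad at 0.622 and Eif1 at 0.624. At the other end lay Eif3j2 at 1.85 and Eif2ak4 at 1.42. Past a 2-fold difference with a 95% counting interval that excluded 1, 0 members were higher and 0 lower, where 3.28% of the 11131 measured protein-coding genes were higher and 3.56% lower. With 1.5-fold in place of 2-fold, 1 member was higher and 4 were lower (Eif3j2, and the 4 lowest genes just named), against 8.98% and 9.41% of protein-coding genes. These shares differed with level. Of the 2453 protein-coding genes with at least 100 CPM, 2 were higher and 66 lower past 2-fold. Past 1.5-fold, 26 of them were higher and 243 lower. Of the 43 members of that level, 0 were higher and 4 lower past 1.5-fold. At any size of difference, intervals excluded 1 on the higher side for 15 members and on the lower side for 33, where the shares of all measured protein-coding genes were 31.2% and 34.6%. These counts also went with level. Of the 43 members with at least 100 CPM, 9 were higher and 26 lower by the interval. Of the 2453 protein-coding genes of that level, 663 were higher and 1374 lower. Ratios within 1.25-fold of 1 were found for 39 of 62 members (62.9%) for 57.9% of protein-coding genes and for 67.2% of those with at least 100 CPM, a level that 43 of the members reached.

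The median log2 ratio of the measured members was -0.11, with 21 members above 0 and 41 below, and that of all measured protein-coding genes was 0.00. Abundant genes had lower ratios in general. For the 43 members with at least 100 CPM the median was -0.13, and for the 2453 protein-coding genes of that level it was -0.12. With scaling by total counts the members' median became 0.01, but the median of all 12468 measured genes also moved, from 0.01 to 0.13. The distance between the members and all genes was therefore the same in both scalings, and small differences below are best read against the median of all genes. In the plot of all ratios by factor, each factor spans both sides of 0 except the eIF2-alpha kinases, eEF2 with its kinase, the termination factors and the factors with a single gene.

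**Figure D1:**
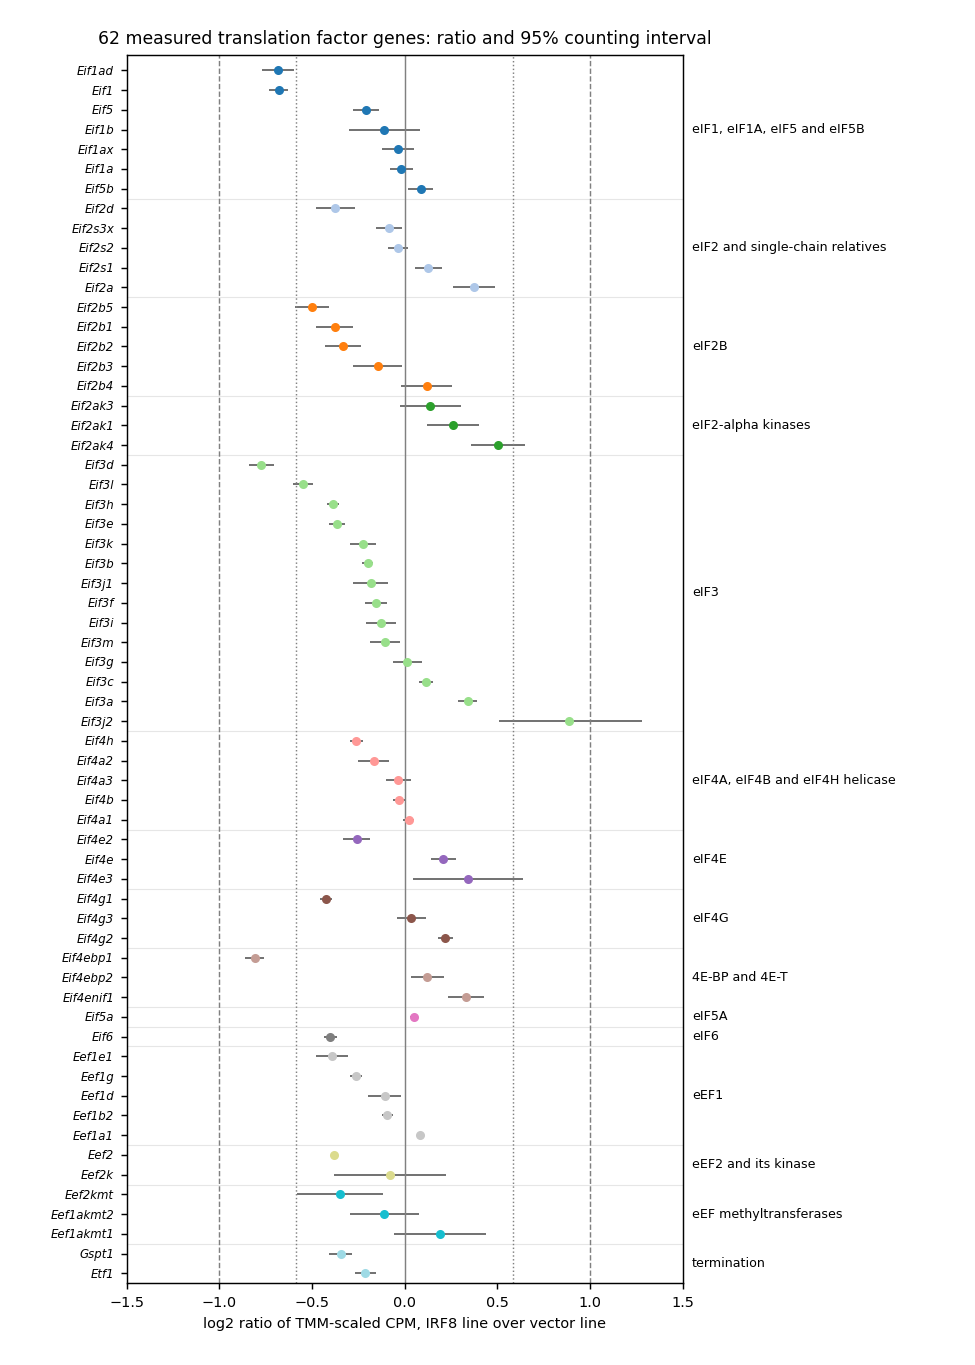
Log2 ratio of TMM-scaled CPM, IRF8 line over vector line, for the 62 measured genes grouped by factor. Points are single ratios, bars are exact 95% counting intervals, dotted lines mark 1.5-fold and dashed lines 2-fold. Eif4ebp1, Eif3d, Eif1ad and Eif1 lie past the lower dotted line and Eif3j2 past the upper one.

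The members took 2.95% of all counts in the vector library against 2.90% in the IRF8 library. Levels of different genes are compared here as reads per kilobase of listed gene length at equal library size (RPKM). Eef1a1, which delivers tRNA to the ribosome, stood highest with 2284 RPKM in the vector line and 2423 in the IRF8 line. Eef2, the translocation factor, followed with 1943 and 1494 RPKM. Eif3h and Eif5a exchanged places below them: Eif3h had 808 and 618 RPKM, and Eif5a 749 and 776 RPKM. The kinases lay near the bottom, with Eif2ak4 at 4.66 and 6.61 RPKM and Eef2k at 1.35 and 1.27 RPKM. Levels of the set thus spanned over 3 orders of magnitude within each line, while no ratio between the lines reached 2.

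**Figure D2:**
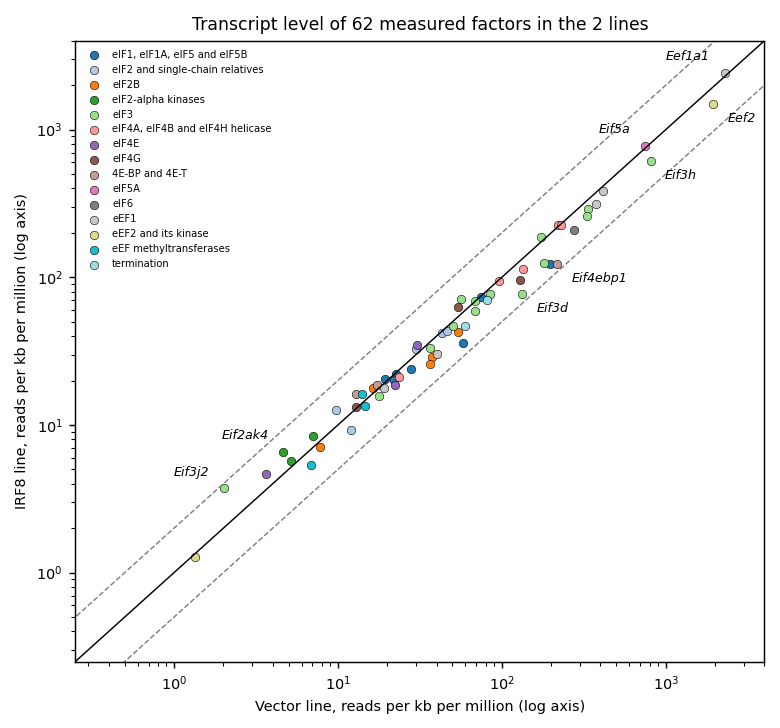
RPKM of the 62 measured genes in the vector line (x, log axis) and the IRF8 line (y, log axis), with colours for factors. The solid line marks equal levels and the dashed lines 2-fold, and every point lies between the dashed lines.

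6 members fell under the threshold for measured genes. Eef1a2, the eEF1A of muscle and neurons, Eif4e1b, an eIF4E of germ cells, and the Y-linked eIF2 gamma gene Eif2s3y had 0 counts in both libraries, where 3 counts, taken as the limit that a count of 0 allows, equal 0.173 CPM in the vector library against 0.143 CPM in the IRF8 library. Eif5a2, a paralogue of Eif5a, had 0 counts in the vector library against 2 in the IRF8 library. Eif4ebp3 had 3 and 6 counts, and the methyltransferase gene Eef1akmt3 had 18 and 20.

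Among the factors of start codon selection, Eif1 was lower in the IRF8 line while its partners were closer to 1. eIF1 keeps the scanning ribosome open until a proper start codon is met, and eIF5 acts in the opposite sense by promoting GTP hydrolysis on eIF2. Eif1 (chromosome 11, 100319885 to 100322096, plus strand, mm10) had 416 CPM in the vector line and 259 CPM in the IRF8 line, a ratio of 0.624 (0.603 to 0.647). Eif5 had 190 and 165 CPM, a ratio of 0.864 (0.824 to 0.907). The ratio of Eif1 to Eif5 transcripts per kilobase was thus 7.10 in the vector line and 5.13 in the IRF8 line, a change of 0.722-fold (Wald 95% interval 0.681 to 0.767) that does not depend on the scaling and was computed after the values had been seen, like the other ratios between genes below.

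Eif1b, a close relative of Eif1, had 24.6 and 22.8 CPM in the vector and IRF8 lines, and the eIF1A genes Eif1a and Eif1ax had ratios of 0.988 and 0.975. Each of these 3 had an interval that included 1, and the direction of each turned with scaling by total counts. The subunit-joining GTPase gene Eif5b had 189 and 200 CPM, a ratio of 1.06. Eif1ad, named for an eIF1A-like domain, had 143 and 88.7 CPM, a ratio of 0.622 (0.585 to 0.661). Of the sequence of Eif1, 36.9% of its 32-base words occur at another annotated locus, so its counts are less certain on that ground than those of Eif1ad, where the share is 0.52%. Of the exon bases of Eif1ad, however, 15.3% overlap Banf1 on the opposite strand.

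The 3 measured subunits of eIF2 had ratios from 0.942 to 1.09, with intervals that excluded 1 for Eif2s1 (higher) and Eif2s3x (lower). By the same kind of interval, 4 of 5 subunits of its exchange factor were lower and 2 of 3 kinases were higher. Such calls were common: of all measured protein-coding genes, 34.6% were lower and 31.2% higher by their interval. The alpha subunit gene Eif2s1, which carries the phosphorylated serine, had 149 CPM in the vector line and 163 CPM in the IRF8 line, a ratio of 1.09 (1.04 to 1.15). Eif2s2 (beta) had a ratio of 0.974 and Eif2s3x (gamma) of 0.942 (0.897 to 0.990), and both passed above 1 with scaling by total counts. Alternative carriers of initiator tRNA went apart. Eif2a had 59.3 and 76.8 CPM, a ratio of 1.30 (1.20 to 1.40), while Eif2d, which also works in reinitiation, had 88.3 and 68.2 CPM, a ratio of 0.771 (0.717 to 0.830).

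Within eIF2B, the catalytic epsilon subunit gene Eif2b5 had 117 CPM in the vector line and 82.5 CPM in the IRF8 line, a ratio of 0.707 (0.663 to 0.754). Eif2b1 (alpha) and Eif2b2 (beta), members of the regulatory core that senses phosphorylated eIF2, had ratios of 0.770 (0.719 to 0.826) and 0.793 (0.741 to 0.848). Eif2b3 (gamma) had 0.904 and Eif2b4 (delta) 1.09, the latter with an interval that included 1. The factor's median log2 ratio of -0.33 was -0.16 after removal of each chromosome's median. Eif2b5 is located on chromosome 16, where the median over 348 measured protein-coding genes was -0.35. Relative to Eif2s1, Eif2b5 transcripts per kilobase stood at 1.21 in the vector line and 0.782 in the IRF8 line.

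Eif2ak4, the gene of the amino acid sensor GCN2 (chromosome 2, 118388618 to 118475234, plus strand), had 34.7 CPM in the vector line and 49.3 CPM in the IRF8 line, a ratio of 1.42 (1.28 to 1.57). Eif2ak1, the heme-regulated kinase HRI, had 39.9 and 47.8 CPM, a ratio of 1.20 (1.09 to 1.32). Eif2ak3, the endoplasmic reticulum kinase PERK, had 31.1 and 34.2 CPM, a ratio of 1.10 (0.983 to 1.23), and its interval included 1. All 3 stayed above 1 in every alternative setting. None of the words of these genes occurs at another annotated locus, but 11.6% of the exon bases of Eif2ak1 and 8.05% of those of Eif2ak3 overlap a gene on the opposite strand, whose reads cannot be told apart without strand information.

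On the opposite side of the same switch stand the subunits that direct a phosphatase to eIF2 alpha. Of 8 genes in a list of eIF2 phosphorylation control, 1 was lower past 2-fold and 0 higher. That gene was Ppp1r15a, the stress-induced subunit GADD34, at 192 CPM in the vector line and 36.9 CPM in the IRF8 line, a ratio of 0.192 (0.177 to 0.208). Ppp1r15b, the constitutive subunit, had 217 and 138 CPM, a ratio of 0.636 (0.606 to 0.668). Among the others, Gcn1l1, the ribosome-bound activator of GCN2, had a ratio of 0.808 and Impact, which opposes it, 1.08. Reference genes of the integrated stress response, which this switch controls, also had ratios under 1. Atf4, on chromosome 15, had a ratio of 0.402, Ddit3 of 0.109, Trib3 of 0.0899 and Chac1 of 0.0682, and 5 of 5 genes of that list, Atf3 included, were lower past 2-fold.

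Since IRF8 was the factor introduced, promoters were searched for 2 elements that IRF proteins are known to bind. Windows of 250 bases before to 50 bases after each annotated start were taken from RefSeq (GRCm38.p6) and covered 51 of the 68 members. The interferon-stimulated element, GAAA followed after 2 bases of any kind by GAAA on either strand, was present for 3 members (5.88%) and for 4.06% of 16341 protein-coding genes. An ETS-IRF composite element, GGAA followed after 2 bases of any kind by GAAA on either strand, was present for 2 members (3.92%) and for 3.04% of genes. The 5 matches are shown on the strand of the gene, with the matched letters in capitals; those of Eif2s3x and Eif3a match on the opposite strand.
Eif2s1 (chr12:78861850-78861879, plus): cctggagcaaGAAACAGAAActtacctctc
Eif3a (chr19:60790885-60790914, minus): agaccgcaaaTTTCCCTTTCccactctgtg
Eif2s3x (chrX:94212636-94212665, minus): tgccgagcatTTTCCTTTTCtctccgagca
Eif2ak3 (chr6:70844310-70844339, plus): gtggcattagGGAACTGAAAtgattcacca
Eif2b2 (chr12:85219489-85219518, plus): ctctcggcccGGAAGTGAAAcagtgctttg
Ratios of these genes fell on both sides of 1, from 0.793 for Eif2b2 to 1.27 for Eif3a.

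The eIF3 complex, the scaffold on which initiation factors assemble at the small subunit, was uneven across its subunits, with 4 genes above and 10 below a log2 ratio of 0. Eif3d, whose product can itself bind the cap of some mRNAs, had 253 CPM in the vector line and 148 CPM in the IRF8 line, a ratio of 0.585 (0.559 to 0.613). Eif3l followed with 344 and 235 CPM, a ratio of 0.683 (0.658 to 0.710). Eif3h, of which 36.7% of words occur at another locus, had 1012 and 774 CPM (0.764), and Eif3e 513 and 399 CPM (0.778). These 4 genes, the lowest of the 14, are the eIF3 genes that lie on chromosome 15.

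At the other end, Eif3a, the largest subunit and part of the structural core, had 293 CPM in the vector line and 371 CPM in the IRF8 line, a ratio of 1.27 (1.22 to 1.31). Eif3c, its core partner, had 611 and 661 CPM, a ratio of 1.08. Eif3b, the platform for Eif3i and Eif3g, had 1121 and 976 CPM, a ratio of 0.871. The remaining Eif3f, Eif3g, Eif3i, Eif3j1, Eif3k and Eif3m had ratios from 0.854 to 1.01. Measured against Eif3a, Eif3d transcripts per kilobase stood at 2.34 in the vector line and 1.08 in the IRF8 line. This change of 0.462-fold (Wald 95% interval 0.436 to 0.489) does not depend on the scaling, but the surroundings of the 2 genes differed too. Other measured protein-coding genes within 5 Mb had a median log2 ratio of 0.12 around Eif3a and -0.63 around Eif3d.

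Eif3j2 had 83 counts in the vector library against 185 in the IRF8 library, a ratio of 1.85 (1.42 to 2.43). It shares 94.1% of its 32-base words with another locus, nearly all with Eif3j1, which had 1810 and 1920 counts and a ratio of 0.881. Reads of the pair may have been divided between them, so both values are uncertain. With scaling by total counts Eif3j2 passed 2-fold. For Eif3d, 43.3% of exon bases overlap the antisense gene Gm17638, which was itself listed with 22 and 26 counts, while 0.83% of its words occur elsewhere.

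**Figure D3:**
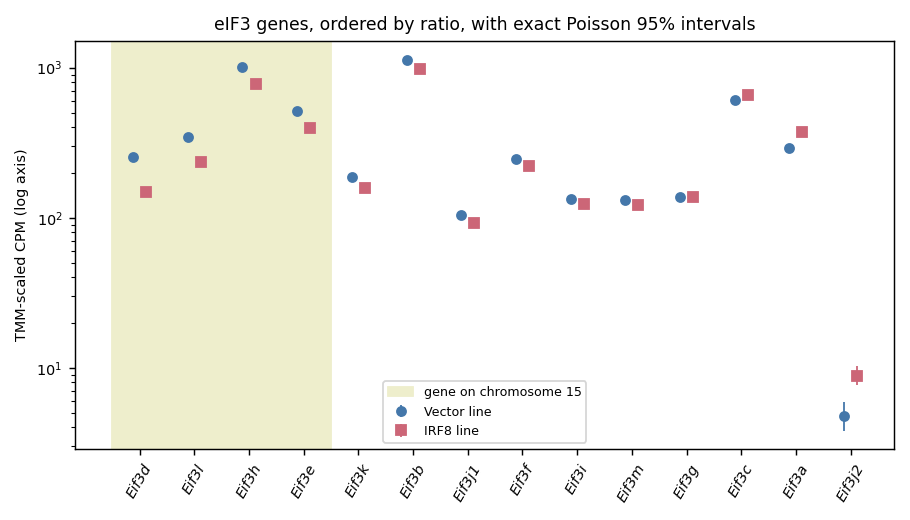
TMM-scaled CPM (log axis) of the 14 eIF3 genes in the vector line (circles) and the IRF8 line (squares), ordered by ratio, with exact Poisson 95% intervals. The 4 shaded genes lie on chromosome 15, and their levels in the IRF8 line are below those in the vector line under each scaling tried, although Eif3l turned above 0 once the median of its neighbours was removed.

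The position of the 4 genes was examined further. Chromosome 15 had a median log2 ratio of -0.31 over 458 measured protein-coding genes. Around Eif3d (77958998 to 77970824, minus strand) the other 148 protein-coding genes within 5 Mb had a median of -0.63, beside -0.77 for Eif3d itself. Around Eif3l (79075223 to 79094400, plus strand) 152 such genes had -0.64, beside -0.55, so the sign of Eif3l turned when the neighbours' median was removed. Eef1d, a subunit of the eEF1 exchange complex, lies in the same region with 124 neighbours at -0.62, and its own value was -0.11.

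Eif3e and Eif3h lie elsewhere on the chromosome among fewer genes, 17 with a median of -0.28 and 14 with a median of -0.22, and their own values were -0.36 and -0.39. Eif4b, near the far end, had -0.03, and its 100 neighbours had 0.00. On chromosome 16, Eif4g1, Eif2b5, Gspt1, Eef2kmt and Eif4a2 ranged from -0.50 to -0.17, and the median around each lay between -0.42 and -0.21. Apart from Y, with 1 measured gene, chromosomes 16 and 15 had the lowest medians over protein-coding genes, -0.35 and -0.31. In all, 11 members lie on these 2 chromosomes, and 11 of 11 had a log2 ratio below 0, with a median of -0.36. Since the chromosomes with the lowest medians were set apart here, this count is no separate result. The 51 measured members elsewhere had a median of -0.08, with 21 above 0.

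Across the 62 members, the log2 ratio of a gene and the median of its neighbours had a Pearson r of 0.51 and a Spearman rho of 0.57, or 0.45 and 0.52 over the 56 members off chromosome 15. All points come from the same 2 libraries and some share neighbours, so this is a description. The log2 ratio departed farthest from that of the neighbours for Eif3j2 (by 0.91), Eif4ebp1 (by -0.79) and Eif1 (by -0.66). The part of chromosomal position in the ratios was not tested.

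**Figure D4:**
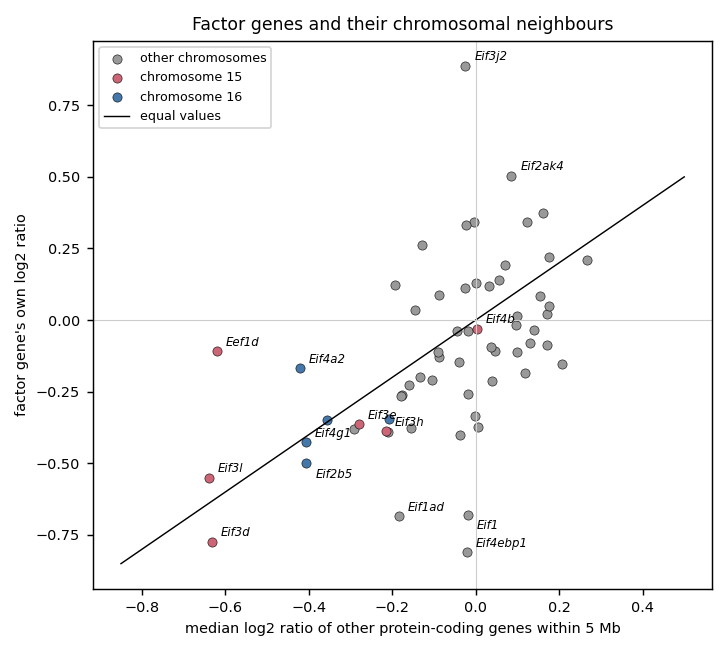
Log2 ratio of each measured factor gene (y) against the median log2 ratio of the other measured protein-coding genes within 5 Mb (x), with chromosomes 15 and 16 in colour and a line of equal values. Eif3d and Eif3l lie near the line at the lower left, while Eif4ebp1, Eif1 and Eif3j2 lie far from it with neighbours close to 0.

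In the cap-binding machinery, the inhibitor Eif4ebp1 and the scaffold Eif4g1 were lower in the IRF8 line and the cap-binding protein Eif4e was slightly higher. Eif4ebp1 (chromosome 8, 27260329 to 27276674, plus strand) encodes 4E-BP1 and is known as a target of ATF4. It had 8282 counts in the vector library against 5688 in the IRF8 library, or 477 and 272 CPM, a ratio of 0.570 (0.551 to 0.590). Eif4ebp2, its paralogue, had 99.6 and 108 CPM, a ratio of 1.09 (1.02 to 1.16). Eif4e had 182 and 210 CPM, a ratio of 1.16 (1.10 to 1.21), though its log2 ratio of 0.21 lay under the 0.27 of its neighbours. The level of Eif4ebp1 per kilobase was 7.18 times that of Eif4e in the vector line and 3.54 times in the IRF8 line, a change of 0.493-fold (Wald 95% interval 0.466 to 0.522). That of Eif4ebp2 was 0.569 and 0.536 times, and this interval (0.872 to 1.02) included no change. Eif4enif1, the transporter that carries eIF4E into the nucleus, had 82.1 and 103 CPM, a ratio of 1.26 (1.18 to 1.35).

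Of the other cap-binding proteins, Eif4e2, known as a repressor on selected mRNAs, had 168 and 141 CPM, a ratio of 0.836. Eif4e3 had 160 and 244 counts, or 9.21 and 11.7 CPM, a ratio of 1.27 (1.03 to 1.56). Eif4g1 had 936 and 696 CPM, a ratio of 0.744 (0.727 to 0.761), beside chromosome 16 neighbours at a median log2 ratio of -0.41 and its own -0.43. Eif4g2, which lacks the eIF4E-binding part and serves cap-independent initiation, had 548 and 638 CPM, a ratio of 1.17 (1.14 to 1.20), and Eif4g3 had 1.02. Per kilobase, Eif4g1 exceeded Eif4g2 by 2.40 times in the vector line and by 1.53 times in the IRF8 line.

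The helicase and its helpers were close to 1, and the direction of each but Eif4h turned in some setting. Eif4a1, the main RNA helicase of eIF4F, had 958 and 973 CPM (1.02), Eif4a2 had 126 and 112 CPM (0.891), and Eif4a3, which works in the exon junction complex, had 0.977. Eif4b, a cofactor of the helicase, had 0.979 and Eif4h 0.835. Of Eif4a1 and Eif4a3, 35.4% and 43.6% of words occur at another locus, for Eif4a1 mainly at a processed pseudogene.

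**Figure D5:**
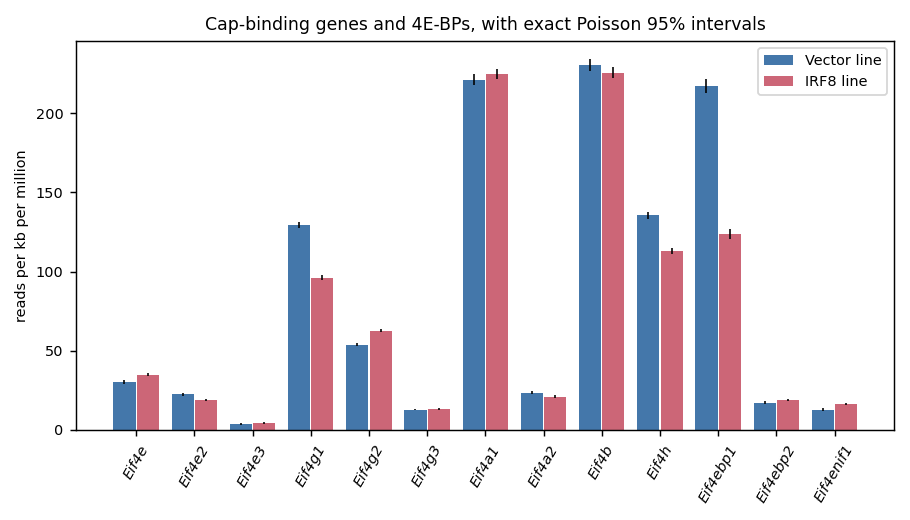
RPKM of 13 cap-binding, helicase and 4E-BP genes in the vector line and the IRF8 line (bars from 0), with exact Poisson 95% intervals that cover counting error only. Eif4ebp1 stands at 217 RPKM in the vector line and 124 in the IRF8 line, and Eif4g1 at 130 and 96.3, while Eif4a1 and Eif4b are nearly level.

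Of 18 measured genes of mTORC1 and cap-binding control, 1 was higher and 1 lower past 2-fold. The higher gene was Sesn1 (87 and 226 counts, ratio 2.16) and the lower one its paralogue Sesn2 (1421 and 774 counts, ratio 0.452), both inhibitors of mTORC1 signalling. Mtor had a ratio of 1.13 (1.03 to 1.23) and Pdcd4, an inhibitor of eIF4A, 1.20 (1.07 to 1.35). The ribosomal protein gene Rps6, whose product is phosphorylated downstream of mTORC1, had 1.09. Past 1.5-fold, 2 genes of this list were higher and 3 lower. Besides the Sesn genes these were Rps6kb1 at 1.54, and Ddit4 at 0.531 and Akt1s1 at 0.572. The list had 8 genes above a log2 ratio of 0 and 10 below, with a median of -0.10.

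Several initiation factor genes are textbook targets of MYC, and Myc, on chromosome 15, had 8537 counts in the vector library against 4677 in the IRF8 library, a ratio of 0.455 (0.439 to 0.471). The E-box CACGTG, which MYC and other basic helix-loop-helix proteins bind, reads the same on both strands. It was found in the promoter windows of 12 of 51 members (23.5%) and of 9.19% of protein-coding genes. As for each element searched, 1 matching window was enough, and genes with more annotated starts had more windows. The comparison held all 16341 protein-coding genes with a window, measured or not, and was not matched to the members by level. For 5 of these members, not the 5 most abundant, 1 site each is shown in capitals within 30 bases of the gene strand.
Eif4e (chr3:138527192-138527221, plus): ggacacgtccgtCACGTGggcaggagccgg
Eif4g1 (chr16:20672661-20672690, plus): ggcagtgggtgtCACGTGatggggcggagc
Eif4a1 (chr11:69672595-69672624, minus): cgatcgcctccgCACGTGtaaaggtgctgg
Eif5a (chr11:69921443-69921472, minus): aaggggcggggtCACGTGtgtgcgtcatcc
Eef2 (chr10:81176576-81176605, plus): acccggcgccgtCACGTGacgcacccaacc
The 11 measured members with an E-box had a median log2 ratio of -0.11, with 4 above 0 and 7 below. The 37 measured members without one had -0.09, with 13 above and 24 below. The 3 other elements searched on both strands, bound by ATF and AP-1 proteins, were TGATGNAA in 2 members (3.92%, against 4.02% of genes), TGACGTCA in 1, Eef2 (1.96%, against 2.66%), and TGANTCA in 5 (9.80%, against 8.15%). Eif4ebp1 had no window in the table. Ratios of the 5 genes with a printed E-box ran from 0.744 for Eif4g1 to 1.16 for Eif4e, and those of all 11 measured members with an E-box from 0.744 to 1.27 (Eif3a).

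The transcripts of Eef1a1 and Eef2, the most abundant of the set per kilobase, had ratios on either side of 1, but Eef1a1 turned below 1 with chromosome or neighbour medians removed. Eef1a1 had 98861 counts in the vector library against 126318 in the IRF8 library, or 5693 and 6041 CPM, a ratio of 1.06 (1.05 to 1.07). Eef2 (chromosome 10, 81176631 to 81182498, plus strand) had 112179 and 103851 counts, or 6460 and 4966 CPM, a ratio of 0.769 (0.762 to 0.775). Eef1a1 per kilobase was thus 1.18 times Eef2 in the vector line and 1.62 times in the IRF8 line. Words shared with other loci made up 73.2% of Eef1a1 and 22.01% of Eef2. Either gene could therefore have gained reads from its pseudogenes or lost reads that match more than 1 locus. The levels of the 2 genes relative to each other are uncertain on that ground. The neighbours of Eef1a1 had a median log2 ratio of 0.15, beside 0.09 for Eef1a1, which left -0.07, and removal of the chromosome 9 median left -0.06. The chromosome 10 neighbours of Eef2 had a median log2 ratio of -0.29, beside -0.38 for Eef2.

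The exchange complex that recharges eEF1A with GTP had ratios under 1: 0.937 for Eef1b2, 0.928 for Eef1d and 0.833 for Eef1g, of which the first 2 passed above 1 with scaling by total counts. Eef1b2 also turned with the expression trend removed, and Eef1d with chromosome or neighbour medians removed. Of the words of Eef1g, 67.9% occur at another locus, mainly at a processed pseudogene, so its value is less certain on that ground. Eef1e1, a small protein of the multi-synthetase complex, had 130 and 99.3 CPM, a ratio of 0.762 (0.718 to 0.810). Eef2k, the kinase that inactivates eEF2, had 173 and 197 counts and an interval (0.767 to 1.17) that included 1. The methyltransferase genes Eef1akmt1 and Eef1akmt2 had intervals that included 1 as well, and Eef2kmt had 316 and 299 counts, a ratio of 0.786 (0.669 to 0.923).

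Eif5a, whose hypusine-bearing product helps the ribosome through difficult peptide bonds, had 1780 and 1844 CPM, a ratio of 1.04 (1.02 to 1.05), but its log2 ratio of 0.05 became -0.08 with the chromosome median removed and -0.13 with that of its neighbours (0.18) removed. Genes of the enzymes that make hypusine, Dhps and Dohh, had ratios of 0.714 and 0.662, and in their list with the diphthamide enzymes, which modify eEF2, 0 of 9 measured genes passed 2-fold in either direction (median log2 ratio -0.41). Eif6, which keeps the large ribosomal subunit from joining too early, had 747 and 566 CPM, a ratio of 0.758 (0.739 to 0.777), while its chromosome 2 neighbours had a median log2 ratio of -0.04. The termination factor genes Etf1 (eRF1) and Gspt1 (eRF3a) had 301 and 260 CPM and 257 and 202 CPM, with ratios of 0.864 and 0.788.

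Many translation factor mRNAs belong to the TOP class, in which a run of pyrimidines at the start of the mRNA ties translation to mTORC1. A run of at least 8 C or T letters within 15 bases on either side of an annotated start was found for 12 of 51 members (23.5%) and for 14.1% of protein-coding genes. The run is in capitals in the 30 bases around the start of 3 members, the one with the longest run, the chromosome 15 gene Eif3l and the most abundant member.
Eif2b5 (chr16:20498802-20498831, plus): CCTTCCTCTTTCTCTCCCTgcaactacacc
Eif3l (chr15:79075208-79075237, plus): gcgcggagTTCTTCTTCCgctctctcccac
Eef1a1 (chr9:78481710-78481739, minus): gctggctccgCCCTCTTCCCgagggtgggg
Members with such a run had a median log2 ratio of -0.10 (10 measured) and those without had -0.10 (38 measured). The run could lie anywhere in the window around an annotated start, and the first base of the mRNA was not measured here. This split is therefore not one by TOP class, and the part of that class in the ratios was not tested.

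Other genes of the pathway were described by the same 2-fold rule, here and in the lists above. Of all measured protein-coding genes, 3.28% passed it as higher and 3.56% as lower, so a count of 0 in a short list carries little weight. In the list of other TOP mRNA genes, 0 of 7 passed it, with Pabpc1 on chromosome 15, the poly(A)-binding protein gene, at 3218 and 2511 CPM and a ratio of 0.780 (0.771 to 0.790). Cytosolic ribosomal protein genes had a median log2 ratio of -0.17 over 76 measured genes, with 0 higher and 1, Rpl24, lower on 176 and 93 counts. Poly(A)-binding proteins and their partners (7 measured, Pabpc1 again among them, median -0.11) had 0 genes past the rule. So did ribosome recycling and rescue factors (7 measured, median -0.21) and mitochondrial translation factors (9 measured, median 0.08).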

How the data were processed

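The NEBNext Ultra RNA kit was used for library preparation, per the labels' protocols. The deposited values are raw whole-number counts per gene, made by the authors with HISAT2 2.0.5 and featureCounts 1.5.0-p3 on build mm10, per the submitters' processing notes. For the strand setting, the treatment of multi-mapping reads and the annotation release, nothing is given in the sources used here. Gene length is as listed in the deposited table.

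TMM factors (0.958 for vector, 1.04 for IRF8) came from edgeR 4.0.16 in R 4.3.3. CPM is the count at a fixed size of the scaled library, and RPKM divides it by length in kilobases. A quasi-likelihood test needs replicates and was therefore left out, each group having 1 library. Ratios carry exact Clopper-Pearson 95% intervals, levels exact Poisson intervals and ratios between genes Wald intervals. Counted reads are not independent molecules, so intervals and limits cover counting error only. A gene was called past 2-fold when its interval also excluded 1.

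Shared words are the 32-base words of the longest GENCODE M21 transcript found at a non-overlapping annotated locus. Of the 68 members, 68 were in GENCODE M21 and 57 had the same coordinates; those printed are of the deposited table, and promoter windows are of RefSeq. Neighbours are counted from gene midpoints. Intervals used scipy 1.17.1, trends statsmodels 0.14.6 and figures matplotlib 3.10.9, all under Python 3.11.15.

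All members could be named. From other lists, the genes past 2-fold and a fixed set (Pabpc1, Rps6, Mtor, Pdcd4, Ppp1r15a, Ppp1r15b, Atf4, Ddit3, Trib3, Chac1, Irf8) were named. Gcn1l1, Impact, Dhps, Dohh, Myc, Gm17638, Rps6kb1, Ddit4, Akt1s1, the named cell type markers and the gene pairs and motifs were chosen after values were seen. Members and lists were chosen with earlier results of these data known. Other settings tried were DESeq2 1.42.0 size factors and scaling by total counts, the upper quartile or protein-coding genes; other filters, folds and intervals; a pseudocount of 1; and removal of trends on expression or length, of chromosome medians or of members with shared words. Removal of the median of neighbours within 5 Mb was added after seeing the data.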

Additional observations from a re-analysis of the deposited data

How the results depend on the processing

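No paired analysis was possible because each group has 1 library, and for the same reason no library could be left out. The count of members past 2-fold was 0 in each direction in all settings except scaling by total counts, where 1 (Eif3j2) was higher, and a threshold of 1.5-fold, where 1 was higher and 4 were lower. Scaling by total counts moved the median log2 ratio of the members to 0.013. It moved that of eIF2 to 0.084, of eIF2B to -0.21, of eIF3 to -0.046 and of the helicase group to 0.089. That of eIF4E became 0.33, of eIF4G 0.16, of the 4E-BP group 0.25 and of eEF1 0.014. The group of eIF1, eIF1A, eIF5 and eIF5B went from -0.11 to 0.011 and the eEF methyltransferases from -0.11 to 0.013. The eIF2-alpha kinases went from 0.26 to 0.38. Each median moved by the shift that all genes shared. With the expression trend removed, the medians were 0.10 for eIF2, -0.029 for eIF3, 0.0895 for the helicase group, 0.14 for eIF4G and -0.026 for eEF1. With the length trend removed, eIF4G was at -0.10. With chromosome medians removed, eIF2B was at -0.16, the helicase group at -0.11 and eIF4E at 0.035. With neighbour medians removed, eIF2B was at -0.11, eIF3 at -0.0750, eIF4E at -0.058 and the 4E-BP group at 0.315. Members with under 5% shared words (38 of 62) gave -0.26 for the helicase group, 0.041 for eIF4E, 0.23 for the 4E-BP group and -0.25 for eEF1, through fewer genes, and with no expression filter the 4E-BP group was at 0.23. Of the 62 genes, 39 kept the sign of their log2 ratio in every setting. Depth limits Eif3j2, Eif4e3, Eif1b, Eef2k and the methyltransferase genes, while for most members the lack of replicates, not depth, limits what the ratios can show.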
